A study of Mus musculus with 45 samples.

Results

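The genes described here are 9 components of the Hedgehog pathway, Ptch1, Gli1, Hhip, Smo, Gas1, Cdon, Boc, Gli2 and Gli3, out of 54532 genes in the count table. They were chosen by name, each was matched to a single row through its Ensembl identifier, and all 9 passed the filter on low counts in every comparison. Hedgehog ligands such as Sonic hedgehog (Shh) bind Patched1 (Ptch1) at the cell surface, with Gas1, Cdon and Boc as co-receptors, and this releases Smoothened (Smo) to signal through the primary cilium to the Gli transcription factors. Gli2 acts mainly as an activator and Gli3 mainly as a repressor when signal is absent. Ptch1, Gli1 and the ligand-binding inhibitor Hhip are themselves switched on by the pathway, so their mRNA is commonly used as a readout of it, and in the neural tube graded Shh from the notochord and floor plate patterns ventral cell types.

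The organoids were wild-type, derived from R1 mouse embryonic stem cells embedded in Matrigel and differentiated in N2B27 medium, so that day 2, untreated and treated organoids share the line and the culture. Day 2 organoids were collected before treatment. Untreated organoids received N2B27 alone, and treated organoids received N2B27 with 250 nM all-trans retinoic acid (RA), and both were collected first at 8 h and 18 h past day 2 and then at intervals of 12 h from 30 h to 78 h, which gave 15 conditions with 3 biological replicates each. The treatment protocol deposited with the samples names 250 µM and somewhat other collection times; here the dose and times follow the paper and the titles of the samples. Each library was poly(A)-selected RNA of whole organoids from one cell line, so that fewer cells of a type and less RNA per cell cannot be told apart.

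Total counts per library were between 17298632 and 39688686, and levels are given as CPM, which are counts relative to the library size, with TMM factors from all 45 libraries. Neural progenitor markers (Sox1, Sox2, Sox3, Pax6 and Nes) had a mean of at least 1 CPM in every condition, and their summed level at 78 h was 802 to 919 CPM in untreated and 883 to 1003 CPM in RA-treated libraries. The pluripotency markers Pou5f1, Nanog, Zfp42, Klf4 and Esrrb still summed to 412 to 494 CPM and 241 to 425 CPM at that time. Of these, Klf4 was called higher and Pou5f1 lower with RA at 78 h. At 42 h the arms were further apart, with neural progenitor sums of 483 to 566 CPM untreated and 755 to 857 CPM with RA. Pax6 was the only marker of that list called, and it was higher. Under 2-fold, Sox1 and Nes were higher and Sox3 lower (log2 fold change -0.54, edgeR adjusted p = 0.000473). Pluripotency sums were 718 to 809 CPM untreated and 222 to 306 CPM with RA. There Pou5f1 alone was called, and it was lower, whereas Klf4 was higher by under 2-fold (0.78, edgeR adjusted p = 0.00156). The part of these markers in the levels of the 9 genes was not tested. The libraries were not uniform. The mean of the Y-chromosome genes Ddx3y, Eif2s3y, Kdm5d and Uty was 1.22 to 3.65 CPM in RA 8 h replicate 3, in the 3 untreated libraries at 30 h and in RA 30 h replicates 1 and 3, against 22.9 to 89.5 CPM in the other libraries. By library number, day 2 replicate 3, RA 30 h replicates 2 and 3, untreated 54 h replicate 3 and all libraries at 66 and 78 h belong to a later series. The RA effects on the 9 genes at 8 and 30 h were therefore also computed without RA 8 h replicate 3 and without RA 30 h replicate 2, which left the numbers of genes called at 1 and 4.

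RA-treated organoids expressed more of the pathway's response genes and co-receptors than untreated organoids of the same age, whereas Smo and Gli3 changed by less than 2-fold and Gli2 was lower at the last time points. A gene was called where the Benjamini-Hochberg adjusted p of edgeR's quasi-likelihood test over all genes was under 0.01 and the change was more than 2-fold. The number of the 9 genes called higher with RA was 1 at 8 h, 3 at 18 h, 4 at 30 h, 5 at 42 h, 6 at 54 h, 6 at 66 h and 4 at 78 h. Of all genes tested, 1.26%, 8.17%, 5.98%, 7.49%, 7.17%, 7.06% and 7.66% were called higher at the same times. The median log2 fold change of the 9 genes rose from 0.42 at 8 h to 1.36 at 54 h and was 0.86 at 78 h, while that of all genes tested was between -0.01 and 0.04. With edgeR, 0 of the 9 genes were called lower with RA at any time, where 0.537%, 2.76%, 2.48%, 4.96%, 5.99%, 4.44% and 4.03% of all genes were. DESeq2 also called 0 lower, and at an unadjusted p under 0.05 Gli2 alone was lower, at 66 h and at 78 h. With no limit on the fold, an adjusted p under 0.01 was reached by 1, 7, 5, 8, 8, 8 and 8 of the 9 genes in either direction, against 3.14%, 42.6%, 14.1%, 37.5%, 38.7%, 33.3% and 33.4% of all genes tested. Every treated library lay above every untreated one for 2, 7, 8, 8, 8, 7 and 7 of the 9 genes. The shares of all genes tested were 18.2%, 31.2%, 25.6%, 32%, 32%, 27.2% and 27.9%. Every treated library lay below for 1 gene at 66 h and 1 at 78 h. In either direction the groups did not overlap for 37.8%, 60.5%, 48.3%, 58.8%, 59.7%, 55.9% and 55.2% of all genes, so that separation alone was common.

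**Figure D1:**
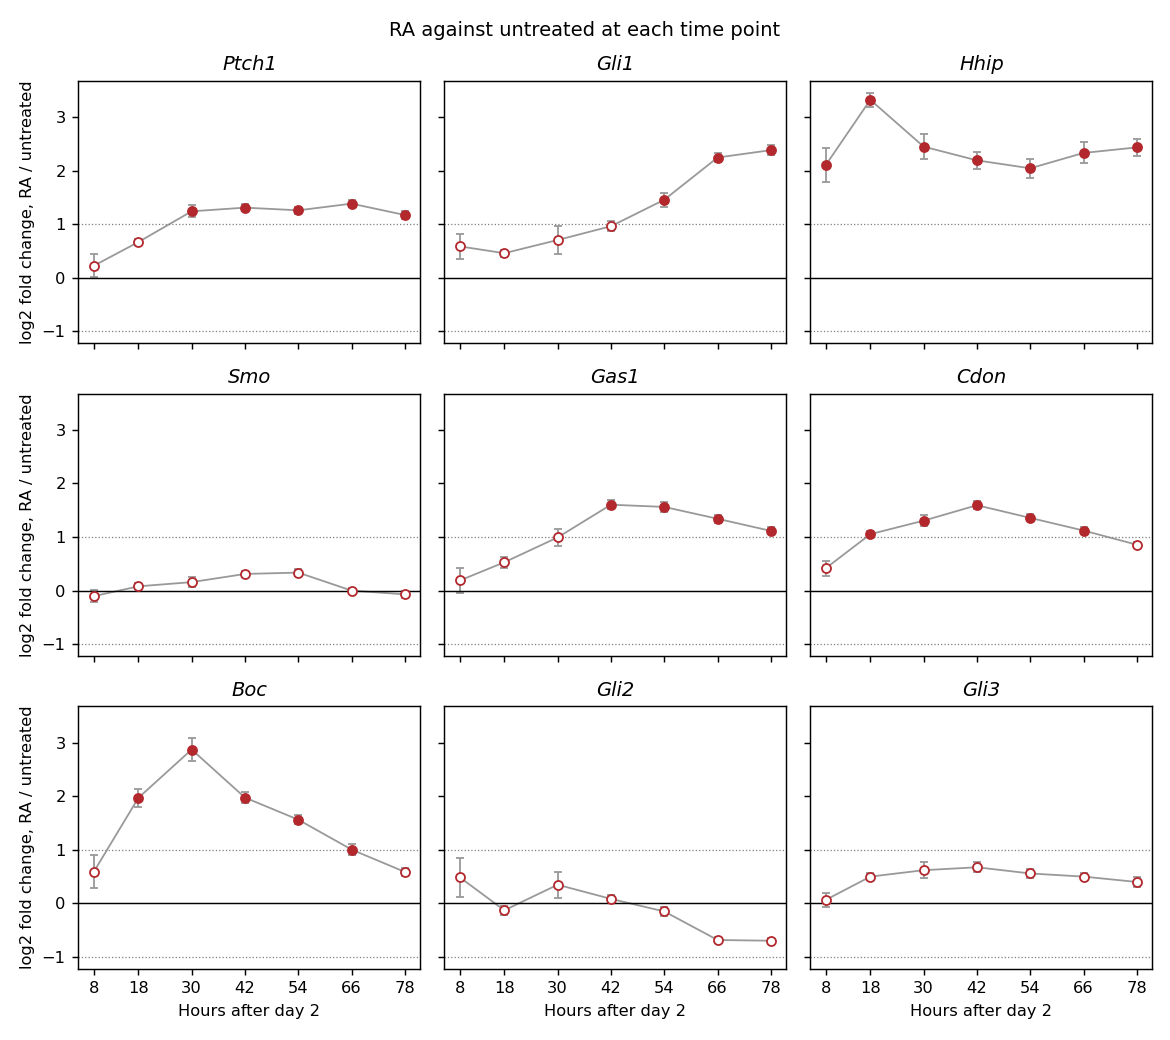
Log2 fold change of RA-treated over untreated organoids for the 9 genes (y axis) against hours after day 2 (x axis), from edgeR's fit of the 6 libraries of each time. Bars are the standard error, filled points are called genes and dotted lines mark a 2-fold change; Hhip is filled at all 7 times, Gli1 climbs from 0.46 at 18 h to 2.39 at 78 h, Boc peaks at 2.87 at 30 h, and Gli2 ends at -0.70.

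Hhip encodes a membrane protein that binds Hedgehog ligands and keeps them from Patched1, and it was the only one of the 9 genes called at 8 h. It lies at chr8:79965851-80058006 (GRCm38, minus strand, ENSMUSG00000064325). At day 2 its level was 3.61, 2.75 and 2.57 CPM in the 3 replicates. At 8 h the untreated libraries had 4.34, 3.88 and 3.71 CPM and the RA-treated libraries had 20.1, 22.1 and 9.12 CPM, so that the groups did not overlap and the lowest treated library was the one low in Y-chromosome genes. The log2 fold change was 2.11 (standard error 0.32, adjusted p = 0.00835), and without that library it was 2.40 (adjusted p = 2.05e-10). The call at 8 h was lost on leaving out any other of the 6 libraries, with an adjusted p of up to 0.0668, although the change itself was 1.88 to 2.40 on the log2 scale in all 6 cases.

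At 18 h Hhip reached its highest level, 25.4, 24.4 and 21.1 CPM with RA against 2.98, 2.15 and 2.13 CPM without. The difference was 3.32 on the log2 scale (standard error 0.13, adjusted p = 4.06e-10). From 42 h on the treated libraries held between 5.75 and 10.2 CPM and the untreated libraries between 1.26 and 2.09 CPM. The gene was called higher with RA at all 7 times, at 8 h with the limits just given, with log2 fold changes of 2.05 to 3.32. The change at 78 h was smaller than that at 18 h by 0.91 on the log2 scale (interaction, adjusted p = 0.00323), although the test over all 7 times did not reach the threshold (adjusted p = 0.0234).

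Ptch1, the Hedgehog receptor and a direct target of the pathway, lies at chr13:63508328-63573598 (GRCm38, minus strand, ENSMUSG00000021466). Its level was 259, 266 and 249.6 CPM at day 2. In untreated organoids it was 224, 193 and 225 CPM at 18 h and only 111, 107 and 118 CPM at 30 h, and it stayed between 91.8 and 136 CPM from 42 to 78 h. RA-treated organoids were above the day 2 level at 18 h, with 321, 350.1 and 341 CPM. They had 252, 296 and 246 CPM at 30 h and 257, 293 and 309 CPM at 78 h. At 54 h they had 208, 239 and 237 CPM, below every day 2 library. From 18 h on the treated and untreated libraries did not overlap at any time.

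The log2 fold change of Ptch1 with RA was 0.67 at 18 h (standard error 0.06, adjusted p = 1.13e-06), under 2-fold, and 1.17 to 1.39 from 30 to 78 h, where it was called at every time. At 8 h it was 0.23 (adjusted p = 0.535), with 300.2 and 281 CPM in replicates 1 and 2 and 155 CPM in replicate 3, the library low in Y-chromosome genes. Without replicate 3 it was 0.46 (adjusted p = 6.57e-05), still under 2-fold. At 30 h, where RA replicate 2 is the only library high in Y-chromosome genes, leaving it out gave 1.13 (adjusted p = 4.88e-11) in place of 1.24.

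Gli1, an activating transcription factor whose mRNA depends closely on Hedgehog signal, lies at chr10:127329882-127341974 (GRCm38, minus strand, ENSMUSG00000025407). At day 2 it had 49.6, 44.9 and 45.3 CPM. In untreated organoids it had 30.6 to 32.9 CPM at 8 h and, somewhat higher, 36.5 to 39.0 CPM at 18 h, and then fell to 20.4, 20.9 and 20.7 CPM at 30 h and 9.75, 8.47 and 8.20 CPM at 78 h. In RA-treated organoids 2 of the 3 libraries at 30 h and all libraries at 42 and 54 h held 24.95 to 35.0 CPM, and the level was back at 41.9, 44.6 and 49.7 CPM at 78 h, close to the day 2 values.

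The log2 fold change of Gli1 with RA was 0.46 at 18 h, 0.96 at 42 h, 1.46 at 54 h, 2.25 at 66 h and 2.39 at 78 h, and it was called at the last 3 of these. It was larger by 1.90 (standard error 0.12, adjusted p = 2.98e-09) at 78 h than at 18 h. Within the treated arm the 3 libraries of a time did not always agree. RA 8 h replicate 3 had 66.8 CPM against 41.0 and 35.0 CPM, and at 30 h RA replicate 2 had 48.5 CPM against 26.6 and 25.5 CPM. With all libraries the log2 fold change of Gli1 was 0.59 at 8 h (adjusted p = 0.142) and 0.71 at 30 h (adjusted p = 0.0781). Without these libraries it was 0.25 (adjusted p = 0.0276) and 0.32 (adjusted p = 0.00436). Arhgap9 shares 62 exon bases with Gli1 on the opposite strand and had at most 188 counts in any library and at most 21.3% of Gli1's count in the same library. The strand setting of the counting is not given in the sources used here.

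**Figure D2:**
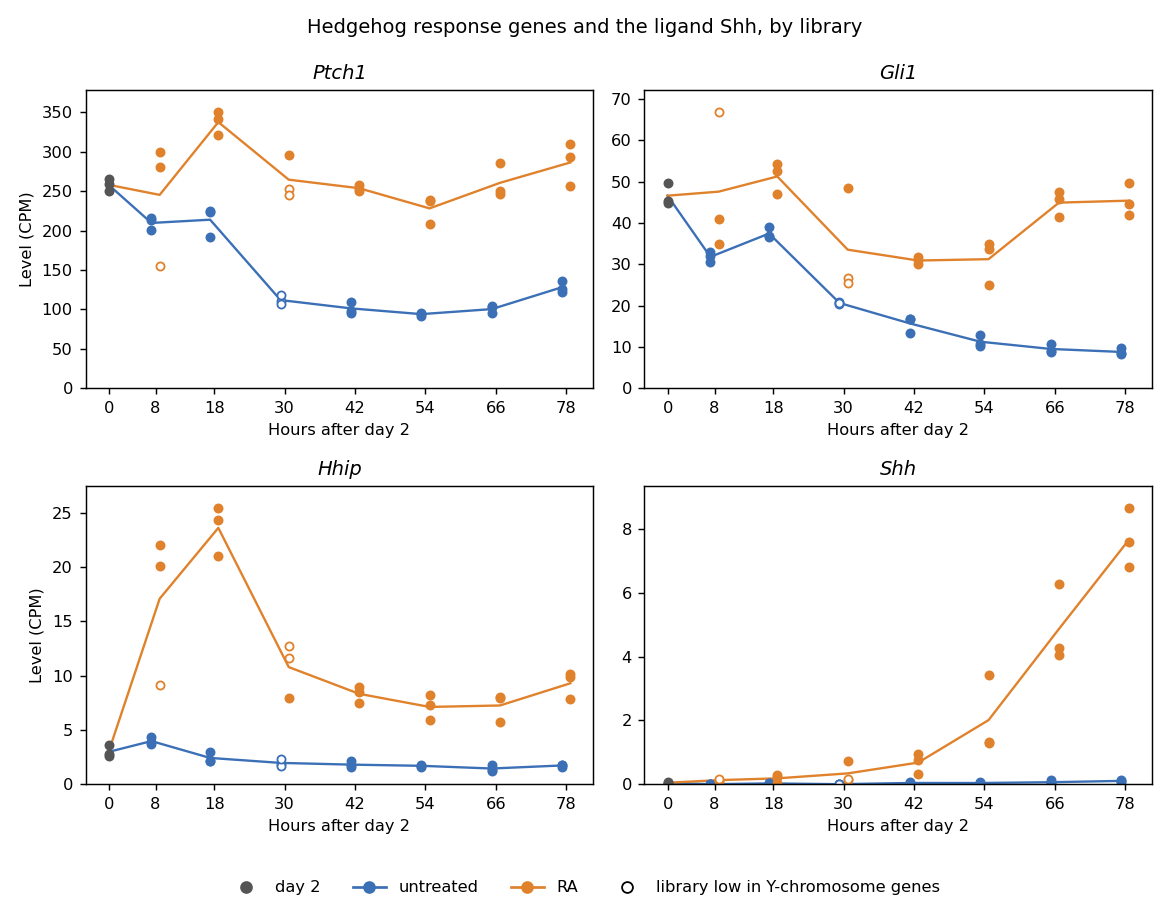
Levels in CPM (y axis, linear from 0) of Ptch1, Gli1, Hhip and the ligand gene Shh against hours after day 2 (x axis). Each point is a library, lines join the means of 3, and open points are the 6 libraries low in Y-chromosome genes; Ptch1 and Gli1 are lower at 78 h than at day 2 in untreated organoids, whereas with RA Gli1 dips to 24.95 to 35.0 CPM at 42 and 54 h and is back at 41.9 to 49.7 CPM at 78 h, Hhip peaks at 18 h with RA, and Shh reaches 6.81 to 8.67 CPM with RA at 78 h against at most 0.12 CPM untreated.

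Shh itself, the ligand made by notochord and floor plate, followed another time course. It had at most 2 counts in any day 2 library, 0 counts in all untreated libraries at 8 and 30 h, and 1, 7 and 5 counts in the RA-treated libraries at 18 h, when the change of Hhip was largest. With RA it had 89, 40 and 35 counts at 54 h and 235, 254 and 217 counts at 78 h (6.81, 8.67 and 7.60 CPM), against 3, 4 and 3 counts untreated at 78 h. It passed the filter on low counts at 54, 66 and 78 h and was called higher at all 3, reaching 6.19 on the log2 scale at 78 h (standard error 0.24, adjusted p = 7.55e-09). The log2 fold change of Gli1 over the same times rose as given above, and the relation between the 2 genes was not tested. Among the other ligand genes, Ihh passed the filter at 5 of the 7 times, not at 8 or 18 h. It was called higher with RA at 2 of them, 54 and 78 h. Dhh passed the filter at 0 times.

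Since Ptch1 and Hhip were the targets with the highest level and the largest fold change, the 250 bases upstream of the start of each RefSeq transcript are shown, from the RefSeq annotation of GRCm38.p6, 5′ to 3′ on the minus strand, with CpG dinucleotides in capitals. The Ptch1 stretch is chr13:63565736-63565985, inside the gene body of the longer gene model and free of its exons, and the Hhip stretch is chr8:80058009-80058258.
Ptch1 upstream: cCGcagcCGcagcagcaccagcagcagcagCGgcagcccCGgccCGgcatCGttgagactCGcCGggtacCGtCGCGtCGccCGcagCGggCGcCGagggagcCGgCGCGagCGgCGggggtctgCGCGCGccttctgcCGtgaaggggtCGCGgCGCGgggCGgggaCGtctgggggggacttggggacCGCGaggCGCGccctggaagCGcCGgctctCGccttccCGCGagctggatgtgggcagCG
Hhip upstream: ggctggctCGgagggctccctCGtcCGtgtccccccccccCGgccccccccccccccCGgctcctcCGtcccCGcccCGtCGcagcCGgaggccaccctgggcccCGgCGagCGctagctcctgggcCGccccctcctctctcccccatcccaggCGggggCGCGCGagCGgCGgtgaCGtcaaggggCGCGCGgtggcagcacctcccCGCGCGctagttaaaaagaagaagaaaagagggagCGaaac
These stretches hold 41 and 28 CpG dinucleotides. In windows from 250 bases before to 50 bases after the start, Ptch1 had 47 and Hhip 30, against a median of 7 over 32851 such windows. The table of promoters holds 7 of the 9 genes, all but Gli1 and Boc. Both strands of the windows were searched for the Gli motif GACCACCCA, which 0.253% of all windows hold, and for the retinoic acid receptor element made of a pair of AGGTCA half-sites in the same direction with any 5 bases between them, which 0.00913% hold. Neither occurred in any of the 7 windows, which says nothing about binding elsewhere. As for Ptch1, the Cdon and Gli3 windows lie inside the longer gene model, so that its start was not searched. The 250 upstream bases of Gas1 and of Gli3 lie wholly in annotated exons.

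Smo, the receptor that carries the signal across the membrane (chr6:29735503-29761365, GRCm38, plus strand, ENSMUSG00000001761), was far higher at the end of the course than at day 2 in both arms. It went from 25.7, 23.6 and 28.9 CPM at day 2 to 169, 173 and 176 CPM in untreated and 149, 161 and 179 CPM in RA-treated organoids at 78 h, where the groups overlapped. With RA the level was highest at 54 h, at 187 to 191 CPM, and lower at 66 h, at 157 to 161 CPM. Its log2 fold change with RA was between -0.10 and 0.34 over the 7 times. It passed the adjusted p threshold at 42 h (0.31, adjusted p = 0.000729) and at 54 h (0.34, adjusted p = 0.000607), at well under 2-fold, and at 66 h it was 0.00 (standard error 0.05).

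The 3 co-receptors differed from Smo in that each was called higher with RA at 4 or 5 of the 7 times. Cdon, an immunoglobulin-superfamily protein that binds the ligand with Patched1 (chr9:35421128-35507652, GRCm38, plus strand, ENSMUSG00000038119), had 29.3, 31.0 and 28.1 CPM at day 2. At 18 h it had 34.3, 31.3 and 34.4 CPM untreated and 70.7, 69.7 and 65.7 CPM with RA, and at 42 h 42.0, 47.5 and 39.0 CPM untreated and 131, 130 and 129 CPM with RA. The groups did not overlap at either time. The log2 fold change was 1.05 at 18 h (standard error 0.06, adjusted p = 1.19e-08), peaked at 1.59 at 42 h and was 0.86 at 78 h, where the adjusted p was 9.87e-08 but the change was under 2-fold.

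Boc, the close relative of Cdon (chr16:44485049-44558897, GRCm38, minus strand, ENSMUSG00000022687), was nearly silent at day 2, with 1.70, 1.15 and 0.87 CPM. With RA it rose earlier: 6.77, 6.68 and 8.57 CPM at 18 h against 1.62, 1.57 and 2.32 CPM untreated, and 30.1, 19.9 and 26.0 CPM at 30 h against 2.67, 3.72 and 4.03 CPM. By 78 h untreated organoids had 59.5, 58.3 and 70.8 CPM and RA-treated organoids 85.7, 94.6 and 99.9 CPM. The groups did not overlap at any of these times, and of them the fold difference was smallest at 78 h.

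The log2 fold change of Boc was 1.97 at 18 h, 2.87 at 30 h (standard error 0.22, adjusted p = 0.000178; 3.02 without RA replicate 2), 1.00 at 66 h and 0.59 at 78 h. It was smaller by 1.39 at 78 h than at 18 h (standard error 0.19, adjusted p = 2.31e-05). At 66 h the change sat on the 2-fold limit, and the call was lost without RA replicate 3 or untreated replicates 1 or 2, at 0.93 to 0.97.

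Gas1, a membrane-anchored co-receptor (chr13:60174405-60177365, GRCm38, minus strand, ENSMUSG00000052957), rose in both arms from 2.03, 1.80 and 2.62 CPM at day 2. At 42 h it had 14.8, 17.8 and 17.6 CPM untreated and 56.4, 51.2 and 46.6 CPM with RA, and at 78 h 37.1, 37.2 and 39.3 CPM and 77.4, 77.6 and 88.5 CPM. The groups were apart at both times. Its log2 fold change was 0.53 at 18 h, 0.99 at 30 h, 1.604 at 42 h (standard error 0.09, adjusted p = 1.83e-07) and 1.11 at 78 h. At 30 h it lay just under the 2-fold limit and passed it without RA replicate 1 (1.09) or replicate 3 (1.03), the 2 treated libraries low in Y-chromosome genes; without replicate 2 it was 0.82.

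**Figure D3:**
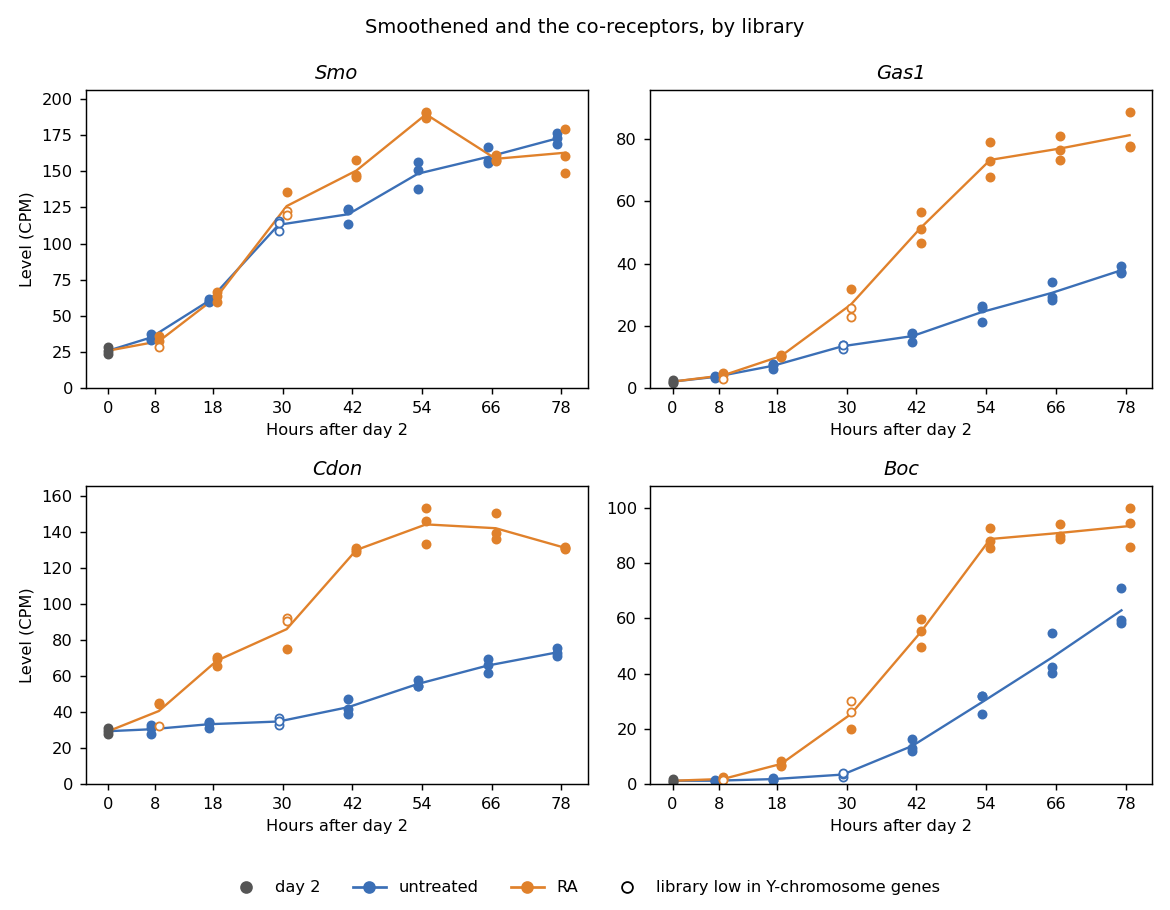
Levels in CPM (y axis, linear from 0) of Smo, Gas1, Cdon and Boc against hours after day 2 (x axis), with a point per library, lines through the means of 3 and open points for the 6 libraries low in Y-chromosome genes. Smo is far above day 2 in both arms at 78 h (149 to 179 CPM) and with RA peaks at 54 h. The co-receptors lie higher with RA, and the gap of Boc between the arms narrows from 54 to 78 h.

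Gli2 (chr1:118834132-119053619, GRCm38, minus strand, ENSMUSG00000048402) was the only one of the 9 genes that was lower with RA at an adjusted p under 0.01. Untreated libraries had 88.8, 92.8 and 101 CPM at 66 h and RA-treated libraries 56.4, 57.4 and 60.6 CPM, and at 78 h the values were 86.2, 93.3 and 96.1 CPM and 52.7, 58.5 and 56.8 CPM. The treated libraries were all below the untreated ones. The log2 fold changes were -0.69 (standard error 0.06, adjusted p = 7.89e-06) and -0.70 (standard error 0.06, adjusted p = 2.66e-06), under 2-fold. At 18, 42 and 54 h the changes were between -0.15 and 0.08, with adjusted p of 0.125 to 0.356.

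Among the treated libraries at 8 and at 30 h, the library that differed in Y-chromosome genes also differed in Gli2. RA 8 h replicate 3 had 76.8 CPM against 31.6 and 28.7 CPM in the other treated libraries and 32.0, 34.1 and 32.6 CPM untreated. At 30 h the untreated libraries had 66.0, 74.9 and 68.0 CPM and RA replicates 1 and 3 had 113 and 99.7 CPM, while RA replicate 2, high in Y-chromosome genes, had 53.5 CPM. The untreated libraries at 30 h are also low in Y-chromosome genes. Their Gli2 values were near those of untreated libraries at 42 h (57.4 to 69.6 CPM) and 54 h (67.1 to 78.0 CPM), which are not. Among the 5 libraries at 30 h that are low in these genes, Gli2 was higher with RA by 0.59 on the log2 scale (adjusted p = 2.52e-06), against 0.35 (adjusted p = 0.323) with all 6. What sets these libraries apart was not tested. RA 30 h replicate 2 also belonged to the later library series, as did replicate 3, and it had the highest level of Foxa2 at that time (9.35 against 2.32 and 1.26 CPM). The endoderm markers Sox17, Gata4, Gata6, Afp and Ttr summed to 2.25 to 16.7 CPM over the 3 treated libraries at 30 h, with 2 of 5 under 1 CPM on average, and to 0.56 to 0.73 CPM untreated; their part in the Gli2 and Gli1 values was not tested.

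Gli3 (chr13:15463235-15730026, GRCm38, plus strand, ENSMUSG00000021318) was higher with RA by less than 2-fold. At 18 h it had 52.3, 41.3 and 50.3 CPM untreated and 65.7, 69.8 and 66.3 CPM with RA, and at 78 h 119, 129.7 and 144 CPM and 148, 177 and 186 CPM. The groups did not overlap, though at 78 h the highest untreated and lowest treated library were close. Its log2 fold change was 0.50 at 18 h (standard error 0.07, adjusted p = 8.13e-05), 0.67 at 42 h and 0.40 at 78 h (adjusted p = 0.00272). The test over all 7 times did not show a change of its RA effect (adjusted p = 0.0527).

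**Figure D4:**
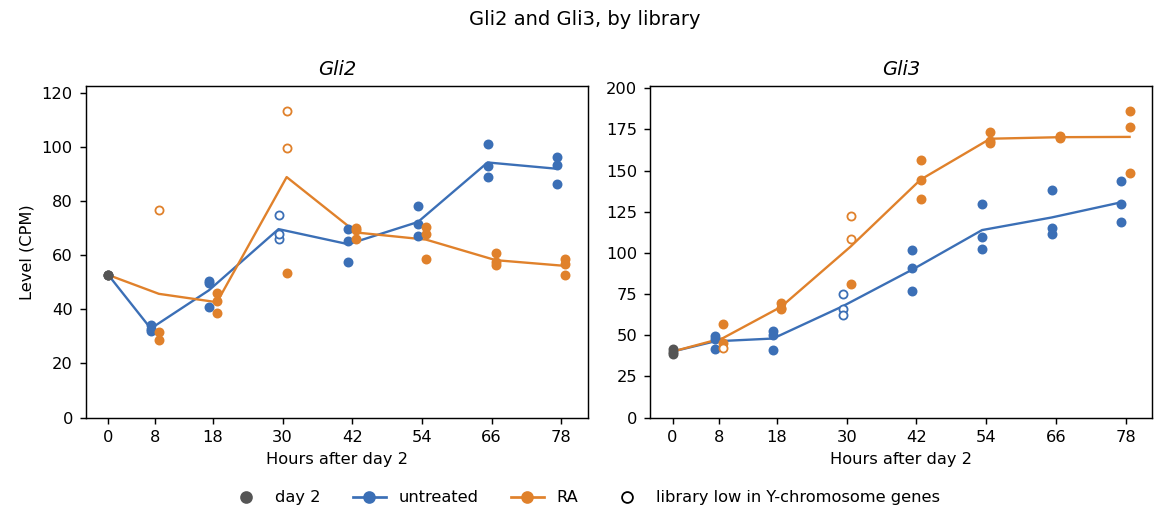
Levels in CPM (y axis, linear from 0) of Gli2 and Gli3 against hours after day 2 (x axis), a point per library, lines through the means of 3 and open points for the 6 libraries low in Y-chromosome genes. Gli2 with RA falls below untreated at 66 and 78 h and has single libraries far from the others at 8 h (76.8 CPM) and 30 h (53.5 CPM); Gli3 rises in both arms and lies higher with RA.

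Each arm was also compared with day 2. Both sets of comparisons use the same 3 day 2 libraries, so they are given side by side. Apart from RA replicate 2, all libraries at 30 h are low in Y-chromosome genes and the day 2 libraries are not. For them, time and this difference between libraries cannot be told apart. All libraries at 66 and 78 h belong to the later library series, and of the day 2 libraries replicate 3 alone does. Series and time are therefore largely mixed in the comparisons of 66 and 78 h with day 2, and the part of the series was not tested. In untreated organoids 0, 2, 5, 6, 6, 8 and 7 of the 9 genes were called at the 7 times in order, where 0.588%, 4.56%, 22.6%, 21.8%, 26%, 30.8% and 34% of all genes tested were called. At 8 h DESeq2 also called 0, and at an unadjusted p under 0.05 edgeR gave 4 higher and 3 lower. In RA-treated organoids 1, 5, 6, 6, 6, 6 and 6 were called, against 4.19%, 20.2%, 24.7%, 32%, 34.8%, 35.1% and 37.4% of all genes. With RA all of these calls were rises.

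The 2 arms parted in the target genes. In untreated organoids Ptch1 was called lower than day 2 at every time from 30 h, with log2 fold changes of -1.19 at 30 h and -1.01 at 78 h. Gli1 was called lower at the same times, at -1.16 at 30 h and -2.41 at 78 h (standard error 0.08, adjusted p = 1.92e-13). With RA neither was called at any time, but Gli1 was below day 2 at an adjusted p under 0.01 at 42 h (-0.58, adjusted p = 2.4e-06) and 54 h (-0.57, adjusted p = 0.000456), under 2-fold. At 30 h Gli1 with RA was at -0.46 (adjusted p = 0.164), and at -0.84 (adjusted p = 7.74e-08) without RA replicate 2. At 78 h the log2 fold changes from day 2 were 0.15 for Ptch1 (standard error 0.07, adjusted p = 0.0622) and -0.04 for Gli1 (standard error 0.08, adjusted p = 0.651). Hhip was above day 2 at every time with RA, at 2.97 at 18 h and 1.64 at 78 h, whereas without RA its mean was below day 2 from 18 h and was called lower at 66 h (-1.04).

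The receptors and Gli3 rose from day 2 in both arms. At 78 h the log2 fold changes without and with RA were 2.72 and 2.64 for Smo, 4.12 and 5.22 for Gas1, 5.65 and 6.22 for Boc, 1.31 and 2.16 for Cdon, and 1.70 and 2.09 for Gli3. All 10 were called. Cdon was first called at 66 h without RA and at 18 h with RA, Boc at 30 h and 18 h, and Gli3 at 42 h and 30 h. Gli2 was not called against day 2 in either arm with all libraries, but at 30 h with RA it was at 0.76 (adjusted p = 0.0321) and, without RA replicate 2, past 2-fold at 1.01 (adjusted p = 1.76e-09). At 8 h with RA it was at -0.18 (adjusted p = 0.749), and at -0.80 (adjusted p = 5.58e-07) without RA replicate 3. At 78 h it was 0.80 without RA (adjusted p = 1.22e-09) and 0.09 with RA (adjusted p = 0.216).

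The RA effect itself changed with time. Between 18 and 78 h it changed for 6 of the 9 genes at an adjusted p under 0.01 (27.9% of all genes tested), upwards for Gli1 (1.90), Gas1 (0.56) and Ptch1 (0.48) and downwards for Boc (-1.39), Hhip (-0.91) and Gli2 (-0.59). All libraries at 78 h and none at 18 h belong to the later library series, so that series and time cannot be told apart here. Tested over all 7 times, the RA effect differed for 7 of the 9 genes, with Hhip and Gli3 the exceptions (33.2% of all genes). That test spans both library series and the libraries low in Y-chromosome genes, and it does not separate either from time. Between 18 and 30 h edgeR called 0 of the 9 (3.1% of all genes), with 4 higher and 1 lower at an unadjusted p under 0.05, and DESeq2 called Ptch1. Without RA 30 h replicate 2 edgeR called Ptch1 (0.47), Boc (1.06) and Gli2 (0.73). All libraries then left at 30 h are low in Y-chromosome genes and all at 18 h are not. Time and this difference between libraries cannot be told apart there.

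To compare levels between genes, counts were divided by the length of the merged exons (RPKM). At day 2 the order of the mean levels per length was Ptch1 (18.2 RPKM), Gli1 (9.33), Gli2 (7.67), Smo (4.63), Gli3 (4.18), Cdon (3.82), Gas1 (0.73), Hhip (0.33) and Boc (0.28 RPKM). The ranges over the 3 libraries overlapped between Smo and Gli3 and between Hhip and Boc, and between no other neighbours. At 78 h without RA, Smo led with 30.7 RPKM, followed by Boc, Gli3, Gli2 and Gas1 at 14.1 to 12.8 RPKM, of which each neighbour overlapped the next. Cdon (9.50) and Ptch1 (9.04) came next and overlapped, and Gli1 (1.76) and Hhip (0.19 RPKM) were last and apart. At 78 h with RA, Smo (29.0) and Gas1 (27.4 RPKM) overlapped at the top, Boc (21.0), Ptch1 (20.2), Gli3 (17.8) and Cdon (17.0 RPKM) formed a chain of overlapping neighbours, Gli1 (9.09) and Gli2 (8.15) overlapped, and Hhip (1.02 RPKM) was again last.

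**Figure D5:**
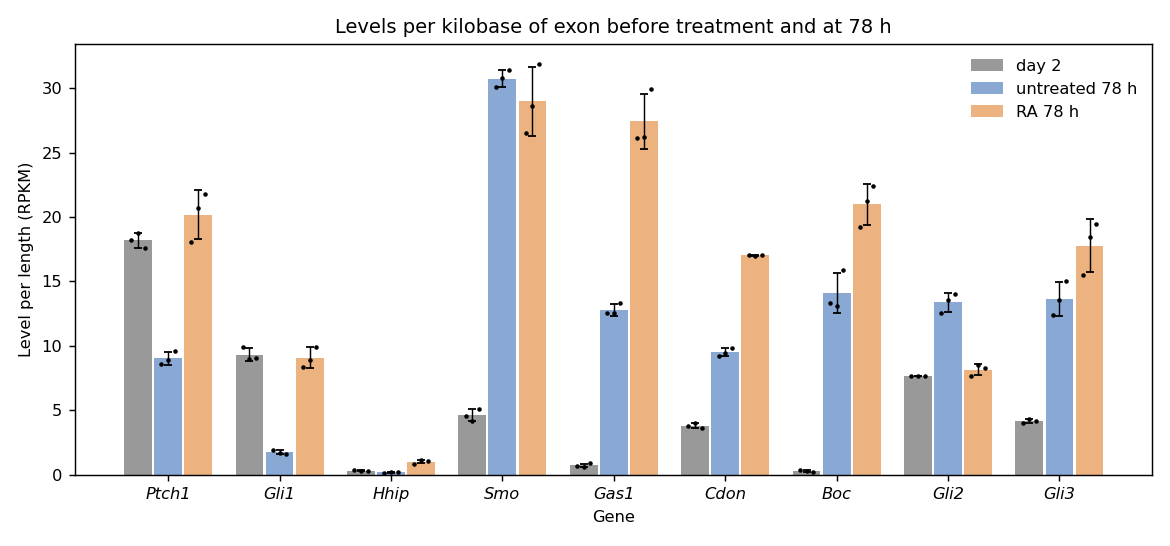
Mean level per kilobase of merged exon (RPKM, y axis from 0) of the 9 genes (x axis) at day 2 and at 78 h without and with RA; error bars are the SD of 3 libraries and dots are the libraries. Gli1 is at 9.33 RPKM at day 2, 1.76 untreated and 9.09 with RA, whereas Smo rises from 4.63 to 30.7 and 29.0 RPKM.

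Over the means of the 15 conditions, on the scale of log2(CPM + 1), the 9 genes fell into sets by the shape of their course. Ptch1 and Gli1 had a Pearson's r of 0.91, Ptch1 and Hhip 0.83, Boc and Gli3 0.99, Gas1 and Gli3 0.99, and Gli1 and Gli2 -0.68. The points share the time course and the culture, and the values are descriptions. Among 13083 protein-coding genes with a mean of at least 1 CPM, the most alike to Ptch1 and to Gli1 was Aldh1a2, which encodes an enzyme that makes RA (r = 0.96 and 0.97), to Hhip Tle2 (0.98), to Smo Rnf166 (0.99), to Gas1 Rhou (0.997), to Cdon Cttn (0.98), to both Boc and Gli3 the polarity gene Crb2 (0.99 each), and to Gli2 Rab4a (0.92).

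Another 41 genes of the pathway were examined as a list chosen by function. Of these, 1, 6, 2, 7, 8, 9 and 8 were called higher with RA at 8 to 78 h and 1, 1, 1, 1, 1, 0 and 1 lower, from 33 to 39 genes tested. The shares of all genes called at these times were 1.26% to 8.17% higher and 0.537% to 5.99% lower, so that 1 of 33 at 8 h and 2 of 34 at 30 h (5.98% of all genes) stood near the background. At 66 h, where edgeR called 0 lower, DESeq2 also called 0 and 9 were lower at an unadjusted p under 0.05. Of 13 genes of the cilium and of signal transfer to Gli, and of 7 kinases and ubiquitin ligase components that act on Gli proteins, all tested at every time, edgeR called 0 at any time. Their log2 fold changes were between -0.54 and 0.90, DESeq2 called 0 of these 20 genes at any time, and at an unadjusted p under 0.05, 4, 10, 3, 8, 6, 4 and 5 of them were higher and 2, 3, 1, 3, 7, 7 and 9 lower at the 7 times in order. Sufu, the main cytoplasmic inhibitor of Gli, passed the adjusted p threshold at 66 h alone, at -0.32 (adjusted p = 0.000834), and Kif7, a ciliary kinesin that regulates Gli, had log2 fold changes of 0.28 to 0.42 at 18, 42 and 54 h (adjusted p = 0.00295 to 0.00611).

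Among genes for release of the ligand, Scube3 and Scube1, which encode secreted proteins that help free lipid-modified Hedgehog, were called higher with RA at 6 and at 5 of the 7 times. Scube3 already differed at 8 h with all 6 libraries (log2 fold change 1.39, adjusted p = 0.000745) and at 18 h had 11.4, 10.6 and 11.5 CPM untreated and 28.9, 34.2 and 34.2 CPM with RA. Scube1 at 42 h had 2.71, 2.78 and 3.35 CPM untreated and 21.9, 19.4 and 18.8 CPM with RA. Lrp2, an endocytic receptor for Shh, was called lower at 78 h, where it fell from 409.7, 456 and 484 CPM to 149, 175 and 155 CPM, a log2 fold change of -1.48 (adjusted p = 4.25e-08).

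Of 7 transcription factors of the ventral neural tube that respond to Hedgehog, those with few counts were tested only at some times. Called higher with RA were 0 of 3 tested at 8 h, 2 of 4 at 18 h and 0 of 3 at 30 h. At 42 h it was 2 of 4, at 54 h 3 of 5, at 66 h 5 of 5 and at 78 h 6 of 6. Of all genes tested, 1.26%, 8.17%, 5.98%, 7.49%, 7.17%, 7.06% and 7.66% were called higher at the 7 times in order. Foxa2, a floor plate and endoderm factor, had 0.68, 0.45 and 0.69 CPM untreated and 1.95, 2.85 and 2.00 CPM with RA at 18 h (log2 fold change 1.89, adjusted p = 6.76e-05), and 0.47, 0.42 and 0.56 CPM and 10.3, 11.2 and 13.1 CPM at 78 h (4.58, adjusted p = 7.59e-09). It was called at 5 of 7 times and not at 8 or 30 h, where single treated libraries differed widely. Nkx2-9, a gene of the most ventral progenitors, was called from 42 h on, at 2.49 at 78 h. Olig2, a factor of motor neuron progenitors, was called at 54, 66 and 78 h, and at 78 h had 2, 8 and 4 counts untreated and 146, 152 and 256 counts with RA (5.39, adjusted p = 1.59e-06). Nkx6-1 was called at 66 and 78 h (1.43 and 1.44), whereas Nkx2-1 was called at 18 h alone, on at most 26 counts, and Nkx2-2 at 78 h alone, on at most 20 counts.

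Of the other target genes, Mycn moved against Ptch1. It was called lower with RA at the 5 times from 8 to 54 h, most at 18 h, where untreated libraries had 353, 324 and 352 CPM and treated ones 51.2, 56.0 and 57.6 CPM (log2 fold change -2.63, adjusted p = 1.93e-12). Foxf1, known as a Hedgehog target in gut mesenchyme, was called higher at 18, 42, 54 and 66 h but had at most 1.07 CPM with RA at 18 h.

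Markers of other cell types also differed between the arms, at 78 h against a background of 7.66% of all genes called higher and 4.03% lower. All 3 tested of 4 markers of simple or surface epithelium were called higher with RA, and the list (Krt8, Krt18, Krt5 and Gata3) summed to 426 to 447 CPM with RA and 37.8 to 46.4 CPM without, with Krt5 at most at 0.32 CPM. Of the endoderm markers 2 of 3 tested were called higher, with sums of 9.85 to 11.1 CPM and 2.29 to 2.63 CPM, Ttr at most at 0.18 CPM with RA and Afp and Ttr at 0 counts without. Of the neuron markers 3 of 5 were called higher and 1 lower, of the mesoderm markers 2 of 5 higher and 1 lower, of the neural crest markers 2 of 4 higher and 1 lower, and of 2 tested markers of blood and endothelium Cdh5 was higher. At 18 h, when the change of Hhip was largest, 3 of 3 endoderm and 3 of 4 epithelium markers were called higher (8.17% of all genes), with sums of 13.9 to 15.9 against 2.10 to 2.35 CPM and 39.3 to 42.3 against 23.5 to 27.1 CPM. Of the neural progenitor markers 2 of 5 were also called higher, and of the pluripotency markers 1 of 5 lower (2.76% of all genes). Among the neural crest, mesoderm and floor plate markers, 1 of each list was higher and 1 lower, of 3, 4 and 3 tested. The part of these cell types was not tested either.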

How the data were processed

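RNAseq libraries of R1 organoids (45 libraries, 15 conditions of 3 biological replicates) were compared by RA treatment and time. Per the labels and the paper, the authors trimmed reads with Trim Galore 0.5.0, removed abundant sequences with Bowtie2 2.3.4.1, aligned to GRCm38, and deposited a table of raw read counts made by featureCounts (Subread 1.6.2), neither normalized nor pooled. The library kit is directional; the strand setting of the counting and the handling of reads matching several places are not given in the sources used here. Symbols, positions and exon lengths were taken from GENCODE M21, while the authors' annotation was an Ensembl release, so that lengths and overlaps can differ slightly. All 45 columns were matched to samples by library number.

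From the counts, RA and untreated libraries of a time, or either arm and day 2, were fitted together with edgeR 4.0.16 (R 4.3.3; TMM, filterByExpr with minimum count 10 and minimum total 15, glmQLFit and glmQLFTest). P-values were adjusted over all genes tested by the Benjamini-Hochberg method, and calls needed an adjusted p under 0.01 together with an absolute log2 change over 1; these cut-offs are those of the paper, which used DESeq2 and required them at both of its time points, whereas here each time was called alone. Changes of the RA effect between times were tested as interactions at an adjusted p under 0.01. Standard errors were derived from the estimate and its F statistic. Replicates are biological per the series text, and each of the replicate pairs differed by more than sampling noise.

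Alternatives were RLE size factors, no filter, DESeq2 1.42.0, one edgeR fit of all libraries, no fold threshold, the replicate number as a block, removal of single libraries, and use of the earlier library numbers only at 30 h. Equal replicate numbers did not pair the libraries at every time, and the main tests did not use them. Of 21 pairs of treated and untreated libraries with the same number, 8 had a correlation of deviations above 0.1, at 66 h all 3. At 30 h (0.073 to 0.206) and 78 h (0.024 to 0.302) each untreated library correlated best with the treated library of its own number. The test script was tested on simulated data. The 9 genes and the lists were chosen with earlier results of these data known. All 9 genes are named; of the other pathway genes, Shh, Foxa2, Nkx2-1, Nkx2-2, Nkx6-1, Olig2, Sufu, Kif7 and those called at 4 or more times are named by rule, and Lrp2 after its values were seen. Some genes of the lists are not reported here. Organoid shape measurements were not analysed here.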

Additional observations from a re-analysis of the deposited data

Results flagged for a closer look

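These are the genes of the set whose RA effect differed between times by an interaction test in edgeR, adjusted over all genes. Between 18 and 78 h the log2 fold change with RA differed by 0.48 for Ptch1 (adjusted p = 0.00115), -0.91 for Hhip (adjusted p = 0.00323), 1.90 for Gli1 (adjusted p = 2.98e-09), 0.56 for Gas1 (adjusted p = 0.000905), -1.39 for Boc (adjusted p = 2.31e-05) and -0.59 for Gli2 (adjusted p = 0.000376). In the test over all 7 times the F statistic was 13.0 for Ptch1 (adjusted p = 1.74e-06), 19.1 for Gli1 (adjusted p = 3.16e-08), 6.81 for Smo (adjusted p = 0.000425), 16.5 for Gas1 (adjusted p = 1.68e-07), 20.4 for Cdon (adjusted p = 1.59e-08), 24.1 for Boc (adjusted p = 2.32e-09) and 4.58 for Gli2 (adjusted p = 0.00548). In one fit of all 45 libraries the differences of Ptch1, Hhip and Gli2 between 18 and 78 h were no longer past the threshold. Hhip at 78 h against 18 h also lost its call without untreated 78 h replicate 2 or 3 or untreated 18 h replicate 3. The limits from the library series and the Y-chromosome genes given above hold for these tests.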

How the results depend on the processing

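Of 125 counts of called genes under other settings 114 stayed within 1.5 times the reported count, and of 918 single log2 fold changes 907 kept their direction and side of the threshold. With no fold threshold (adjusted p under 0.01 alone) the counts for RA against untreated were 7 at 18 h, 8 at 42 h and 8 at 78 h. Of all genes tested, 42.6%, 37.5% and 33.4% passed at these times. For untreated against day 2 the counts were 4 at 8 h, 4 at 18 h and 8 at 30 h, against 7.51%, 28.7% and 60.1% of all genes. For RA at 18 h against day 2 the count was 8, against 58.7% of all genes. With one edgeR fit of all 45 libraries 3 genes in place of 6 changed their RA effect between 18 and 78 h. For the change between 18 and 30 h, 1 gene was called with no filter on low counts and 1 with DESeq2. With no filter, Smo at 66 h was -0.0162 and Ptch1 with RA at 42 h against day 2 was 0.0123, both uncalled; Boc at 66 h (0.99) and Ptch1 untreated at 78 h (-0.96) fell under 2-fold. With the replicate block the count at 8 h was 0, since Hhip there was 2.02 (adjusted p = 0.018). No other of the counts with RA changed under the replicate block, with 4 called at 30 h, 6 at 66 h and 4 at 78 h. Over all times 11 of 21 untreated libraries correlated best with the treated library of their own number. At 30 h, the earlier library numbers alone left 1 treated library, assumed to vary like the others, and log2 fold changes without a test of 1.17 for Ptch1, 2.70 for Hhip, 3.12 for Boc and 0.70 for Gli2.

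Leaving out 1 library at a time kept 138 of 150 counts within 1.5 times. The count of called genes ranged from 0 to 1 for RA at 8 h, from 0 to 2 for RA at 8 h against day 2 and from 0 to 3 for the change between 18 and 30 h, the highest of each without the libraries RA 8 h replicate 3 and RA 30 h replicate 2. Single values whose sign changed were all uncalled as reported. With RA against untreated they ranged from -0.13 to 0.73 for Gli2 and -0.0636 to 0.138 for Gli3 at 8 h, -0.0068 to 0.142 for Gli2 at 42 h and -0.0101 to 0.0366 for Smo at 66 h. Boc untreated at 8 h against day 2 ranged from -0.16 to 0.35. With RA against day 2 the ranges were -0.21 to 0.18 for Ptch1, -0.29 to 0.24 for Gli1 and -0.80 to 0.0742 for Gli2 at 8 h. At later times they were -0.0526 to 0.118 at 30 h, -0.0371 to 0.0057 at 42 h and -0.0467 to 0.0693 at 66 h for Ptch1, and -0.0859 to 0.0165 at 66 h and -0.12 to 0.0325 at 78 h for Gli1. Changes of the RA effect ranged from -0.18 to 0.0156 for Gli3 between 18 and 78 h, and from -0.14 to 0.41 for Gli1 and from -0.0204 to 0.25 for Gli3 between 18 and 30 h. Hhip untreated at 66 h and Ptch1 untreated at 78 h against day 2 fell under 2-fold without single libraries, at up to -0.90 and -0.98, and Gli1 at 42 h passed 2-fold without untreated replicate 1 (1.00) or 3 (1.02). Shh, Olig2, Nkx2-1, Nkx2-2 and Foxf1 were limited by depth, with few counts in untreated libraries.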
